A study of Mus musculus with 46 samples.

Results

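Liver expression and regulation of 10 genes of lipoprotein assembly are described: the apolipoprotein genes Apoa1, Apoa2, Apoa4, Apoa5, Apob, Apoc1, Apoc2, Apoc3 and Apoe, and Mttp. They were taken by symbol from a count table of 25494 genes, all 10 were in it, and all 10 passed the filter on low counts. The study compared liver of male C57BL/6 mice fed a lipid-rich diet (LD, labelled high fat diet, 60% of energy from lipid and 20% from carbohydrate) with liver of mice fed a carbohydrate-rich diet (CD, labelled low fat diet, 10% and 70%) for 20 weeks. The mice carried no transgene or deletion by the labels, arrived at 5 weeks of age and spent 1 week on chow before the diets, so the CD group is itself a defined diet and not a chow control. RNA-seq was done on 5 LD and 5 CD mice, H3K27ac ChIP-seq on 3 and 3 samples, and Hnf4α and C/EBPα ChIP-seq on 2 and 2 samples each. Promoter capture Hi-C (PCHi-C) and Hi-C were each deposited as 1 list per diet, pooled over 2 replicates.

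The liver exports triglyceride in very low density lipoprotein (VLDL). Apob is the structural protein of the particle, and Mttp encodes the large subunit of the microsomal triglyceride transfer protein, which loads lipid onto Apob as it enters the endoplasmic reticulum. The smaller apolipoproteins exchange between VLDL, chylomicrons and high density lipoprotein (HDL) and steer the fate of the particles: Apoa1 and Apoa2 are the main proteins of HDL, Apoc2 activates lipoprotein lipase, Apoc3 and Apoc1 slow triglyceride clearance, Apoa5 promotes it, and Apoe is the ligand for uptake by hepatic receptors. Apoa4 is made in the intestine and, in mice, also in the liver. Of these genes, 7 lie in 2 tight clusters, Apoa1, Apoc3, Apoa4 and Apoa5 on chromosome 9 and Apoc2, Apoc1 and Apoe on chromosome 7.

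Each RNA library held 31707963 to 39012699 read pairs counted on genes. The 10 genes took 5.33% to 6.05% of them in LD mice and 4.93% to 5.37% in CD mice. Per transcript length (TPM, a length-scaled share of transcripts, as deposited), Apoe had the highest mean of the 10 on both diets (21685 ± 2071 TPM on LD, SD, n = 5), followed by Apoc1, Apoa2 and Apoa1, all above 10000 TPM on average. Apob, Apoc3, Apoa4 and Apoa5 had means between 1019 and 5115 TPM, and Mttp lay at 183 ± 21.7 TPM on LD and 179 ± 9.06 TPM on CD (SD, n = 5 each). One of the 5 CD columns of TPM values carries a replicate number that no label gives, and it was used as a CD mouse without a number. On CD the ranges over single mice of Apoe (15214 to 18374 TPM) and Apoc1 (13522 to 16732 TPM) overlapped. The ranges of Apoc1, Apoa2 and Apoa1 over single mice touched one another on LD or on CD, so their order among themselves is not fixed by these data. Apoc2 was listed at 15.1 ± 1.14 TPM on LD and 13.7 ± 1.79 TPM on CD. It lies wholly inside the read-through gene Apoc4-apoc2 (chr7:20256928-20266809, minus strand, mm9), and the counting dropped reads that fell on both, so this value is no gauge of Apoc2 RNA.

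Apoa4 was the 1 gene of the 10 that was called different between the diets. Its library-size normalized counts (CPM) were 1735, 2196, 6106, 5429.6 and 6807 in LD mice 1 to 5, and 1724, 1209, 1184, 1339 and 1392 in CD mice 1 to 5. Every LD mouse lay above every CD mouse, but LD mouse 1 lay just above CD mouse 1, LD mouse 2 next to it, and the other 3 LD mice stood well clear of both. The fitted change was a log2 fold change of 1.70 ± 0.38 (SE), a 3.25-fold higher level on LD, with an adjusted p of 0.00978 in the edgeR quasi-likelihood fit, Benjamini-Hochberg adjusted over 13494 tested genes. A gene was called at an adjusted p under 0.05 and a fold change above 1.2, a rule that 13.8% of all tested genes passed as higher and 11.1% as lower on LD. The 1 of 10 called higher and the 0 of 10 called lower are thus no more than the background share. The adjusted p of Apoa4 did not exceed 0.0279 by edgeR when any single library was left out, but it was 0.0615 with the replicate number as a block, which ends the call. The spread among LD mice was the widest of the 10 genes, with a coefficient of variation of 52.3% against 15.8% on CD.

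The same 2 mice stood nearest to the CD group across the transcriptome. On the first principal component of all tested genes, which held 53.6% of the variance, LD mice 1 and 2 scored 15.1 and 26.7, LD mice 3 to 5 scored 34.9 to 40.3, and the CD mice lay between -38.6 and -27.5. The part of this spread in the Apoa4 values was not tested.

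**Figure D1:**
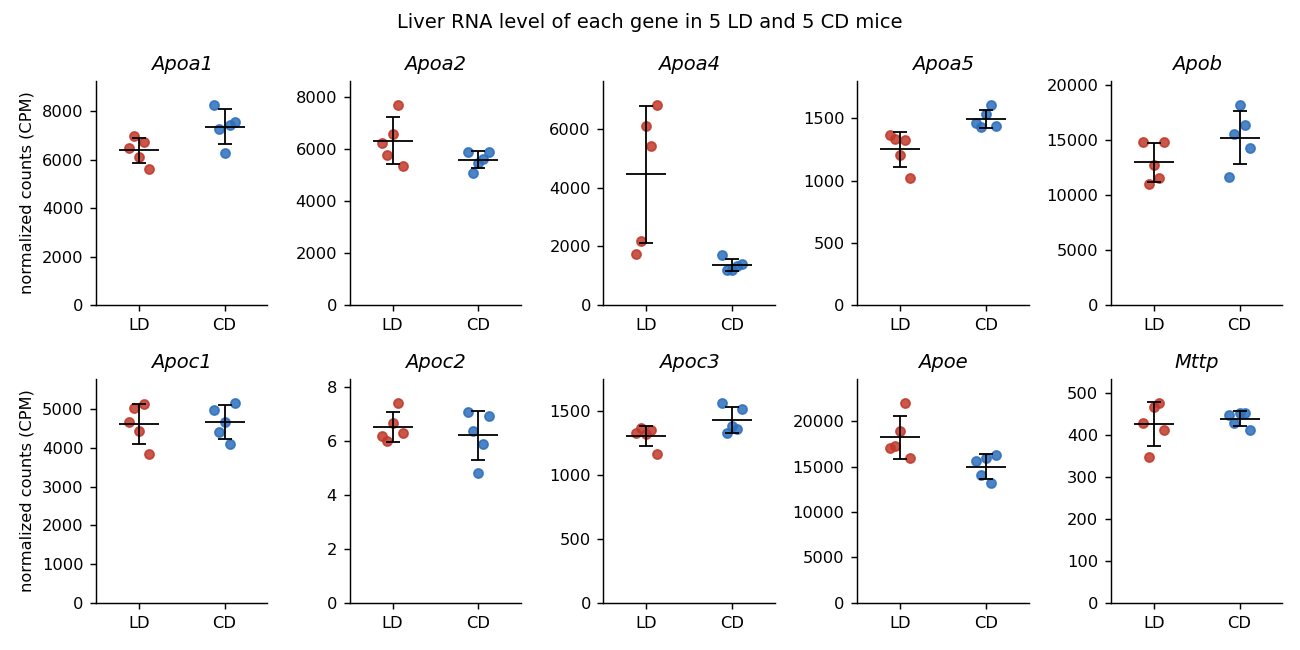
Normalized counts (CPM, linear axis from 0) of each of the 10 genes in single LD (red) and CD (blue) mice, with the mean as a bar and the SD as an error bar (n = 5 each). In Apoa4 the LD mice spread from 1735 to 6807 CPM, all above the CD mice, while in 8 of the other 9 panels the groups overlap and in Apoa5 every LD mouse lies below every CD mouse.

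Among the tested genes outside the 10, those with the closest pattern to Apoa4 over the 10 mice were Rer1 (Pearson's r of log2 CPM 0.99), Cbr3 (0.98), Ano10 (0.98), Arpp19 (0.97) and Prune (0.97). These correlations are descriptions over 10 mice that fall into 2 diet groups. The 5 genes were picked for their likeness to Apoa4 in these mice, so that likeness is no separate result. Within the 5 LD mice alone r was 0.96 to 0.99 for these 5 genes, and within the 5 CD mice 0.65 to 0.93. Cbr3, a carbonyl reductase, went from a mean of 0.755 CPM on CD to 3.69 CPM on LD, with its lowest LD values also in mice 1 and 2, at 1.35 and 1.81 CPM. Rer1, a sorting receptor of the early secretory pathway, differed far less, with means of 125 CPM on CD and 144 CPM on LD.

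**Figure D2:**
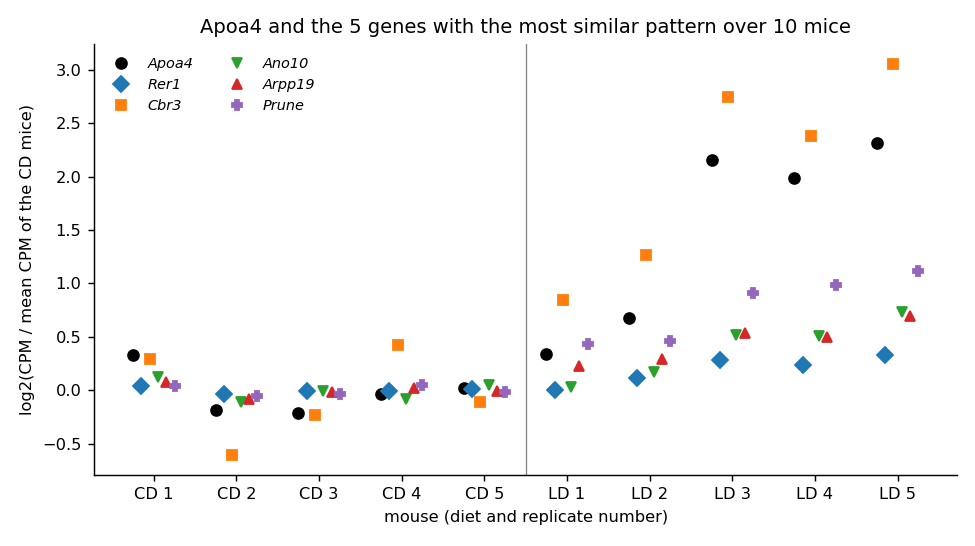
Level of Apoa4 (black) and of the 5 genes with the highest correlation to it in each mouse, as log2 of CPM over the mean of the 5 CD mice; mice are numbered as in the labels and have no order. In LD mice 1 and 2 all 6 genes lie closer to the CD mice than in LD mice 3 to 5. The 5 genes were picked by their likeness to Apoa4, so this is no separate result.

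The Apoa4 start region carries the letters of a nuclear receptor element, and it is shown here because this is the gene that was called. It is given as the RefSeq promoter (GRCm38.p6, chr9:46240594-46240893, plus strand, 250 bases before to 50 after the start), with a match to CAAAGTNCA, a core of Hnf4 elements, in capitals.
Apoa4 promoter: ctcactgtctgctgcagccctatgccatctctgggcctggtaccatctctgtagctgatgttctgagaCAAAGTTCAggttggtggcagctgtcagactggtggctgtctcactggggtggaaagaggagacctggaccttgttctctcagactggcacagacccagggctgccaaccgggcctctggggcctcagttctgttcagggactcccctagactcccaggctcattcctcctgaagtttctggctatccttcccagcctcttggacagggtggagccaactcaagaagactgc
RefSeq promoters were found for 8 of the 10 genes. Of 32851 promoters of this length, 1.41% held CAAAGTNCA on either strand, and Apoa4 was the 1 of the 8 genes that did. A match is a description of letters and not a measured site.

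Apoe narrowly missed the limit on the adjusted p. It stood at 16989, 17244, 18851, 22012 and 15941 CPM in LD mice 1 to 5 and at 15561, 14027, 15989, 13168 and 16239 CPM in CD mice 1 to 5. In CPM, LD mouse 5 lay inside the CD range and the other 4 LD mice above it. In TPM every LD mouse (20120 to 25050) lay above every CD mouse (15214 to 18374). The log2 fold change was 0.28 ± 0.10 (SE) with an adjusted p of 0.0509 by edgeR, which misses the threshold. Of 17 alternative fits, 5 called it higher on LD: 4 that changed the tool, the filter or the unit, and 1 that left out LD mouse 5. Macrophages also make Apoe, and the summed level of 12 Kupffer cell and macrophage markers was 534 to 1373 CPM in LD mice and 409 to 819 CPM in CD mice. Of these 12 markers, 4 were called higher on LD (Gpnmb, Trem2, Itgax and Cd68) and 0 lower, beside 13.8% and 11.1% of all tested genes. The part of these markers in the Apoe values was not tested. In bulk liver, a change in the number of cells of a type and a change in RNA per cell cannot be told apart.

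In CPM, every LD mouse had less Apoa5 than every CD mouse, but by a small margin. Its values were 1367, 1333, 1207, 1329 and 1025 CPM on LD and 1466, 1431, 1533, 1607 and 1439 CPM on CD. In TPM the ranges overlapped (908 to 1115 on LD, 1071 to 1269 on CD). The adjusted p was 0.0400 by edgeR, and the log2 fold change of -0.26 ± 0.09 (SE) fell just short of the required 1.2-fold change. Over 17 alternative fits by edgeR, DESeq2 or limma the adjusted p ran from 0.0144 to 0.102 and was under 0.05 in 6. A complete separation in CPM in the downward direction was seen in 8.35% of all tested genes, and in the upward direction, as in Apoa4, in 10.2%.

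The remaining 7 genes did not pass the test. Apob, the VLDL scaffold, ranged from 11021 to 14797 CPM on LD and from 11643 to 18144 CPM on CD (log2 fold change -0.23 ± 0.12, SE, adjusted p 0.187 by edgeR). Mttp ranged from 347 to 477 CPM on LD and from 411 to 453 CPM on CD (-0.04 ± 0.09, adjusted p 0.751 by edgeR). The diets thus overlapped in both genes that make the particle. Of the HDL proteins, the fitted log2 value was -0.20 ± 0.09 for Apoa1 (adjusted p 0.106 by edgeR) and 0.18 ± 0.10 for Apoa2 (adjusted p 0.188 by edgeR). Apoc1 stood at 4616 ± 514 CPM on LD and 4666 ± 429 CPM on CD, and Apoc3 at 1302 ± 80.7 and 1427 ± 104 CPM (SD, n = 5 each), with log2 fold changes of -0.02 ± 0.10 and -0.13 ± 0.08. For Apoc2 the fitted value was 0.07 ± 0.12, with the limit on its counts given above. Over the 10 genes the median log2 fold change was -0.03, beside a median of -0.00 over all tested genes.

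The liver label was checked against marker lists. Albumin stood at 67059 CPM on LD and 70265 CPM on CD, 0 of 4 adipocyte markers passed the filter on low counts, and of 6 enterocyte markers 1 passed it. That marker was Fabp2, which liver also expresses and which was called higher on LD, at 323 CPM on LD and 197 CPM on CD, while Vil1, Sis, Lct, Alpi and Cdh17 each averaged at most 0.122 CPM and Alpi was 0 in all 10 libraries. Of the hepatocyte markers 0 of 6 were called higher and 3 lower (Cps1, Tat and Serpina1c), of the stellate cell markers 2 of 6 were called higher, of the endothelial markers 1 of 5, of the lymphocyte markers 1 of 4 and of the cholangiocyte markers 0 of 4, with none lower in these 4 lists. Over all tested genes, 13.8% were called higher and 11.1% lower on LD. The part of these markers in the results was not tested.

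The rest of the pathway was described from 6 lists. Their counts stand beside 13.8% of all tested genes called higher and 11.1% called lower on LD. Among 13 other apolipoproteins, 11 were tested, 3 were called higher and 1 lower on LD, and the middle log2 fold change of the list was 0.09. The higher ones were serum amyloid A proteins, which ride on HDL: the acute phase forms Saa2 (6.56 CPM on CD to 65.6 CPM on LD) and Saa1 (13.1 to 95.4 CPM), and the constitutive form Saa4 (112 to 143 CPM). The lower one was Apom, an HDL carrier of sphingosine-1-phosphate, at 149 ± 11.1 CPM on LD against 262 ± 32.4 CPM on CD (SD, n = 5 each). Of 22 genes of VLDL assembly and secretion, 2 were called higher and 3 lower, with a median of -0.02. The higher ones were Ces1g, a carboxylesterase, with a log2 fold change of 0.67, and Apobec1, the deaminase that edits Apob mRNA, with 0.38. The lower ones were A1cf, the RNA-binding cofactor of Apobec1 (-0.67), Tm6sf2, which acts in VLDL lipidation (-0.33), and Aadac, a lipid hydrolase (-0.31). The enzyme that edits Apob mRNA and its cofactor were thus called in opposite directions.

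The receptor list had 4 of 11 tested genes called higher and 2 lower. Cd36, a fatty acid translocase, went from 111 CPM on CD to 414 CPM on LD, and Vldlr from 4.86 to 10.5 CPM. Lrp1, a remnant receptor, was lower at 590 ± 74.1 CPM against 980 ± 181 CPM on CD (SD, n = 5 each), as was Scarb1, the HDL receptor, with a log2 fold change of -0.29. Of the lipases, transfer proteins and inhibitors, 1 of 13 was called higher (Lpl, lipoprotein lipase, 0.91) and 5 lower. The 3 with the largest fall were Lipc, hepatic lipase (-0.72), Abca1, which loads lipid onto Apoa1 (-0.52), and Abcg8, a sterol exporter (-0.38). Of 21 regulators, 1 was called higher (Ppara, 0.34) and 6 lower, led by Mlxipl, the carbohydrate-responsive factor (-1.06), Nr1d1 (-0.91) and Ppargc1a (-0.73). Hnf4a and Cebpa, whose proteins were mapped by ChIP-seq, had log2 fold changes of -0.26 and -0.26 with adjusted p of 0.0176 and 0.0202 by edgeR, both short of the 1.2-fold limit. Of 13 neighbours in the clusters, Relb (0.83) and Tagln (0.49) were called higher and Sik3 (-0.37) and Zpr1 (-0.31) lower, the last 2 lying on either side of the Apoa1 to Apoa5 genes.

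H3K27ac, a mark of active promoters and enhancers, covered these loci densely. In all 6 samples peaks covered the whole gene body of Apoa1, Apoa2, Apoa4, Apoa5, Apoc1, Apoc3 and Apoe, while 44.3% to 78.0% of Apob and 23.1% to 42.9% of Mttp was covered. In the window of gene body and 20 kb on either side, coverage on LD was 61.0%, 52.6% and 55.4% around Apoa5 in the 3 samples, against 67.0%, 62.8% and 68.8% on CD. Around Apoa4 it was 80.4%, 80.9% and 80.9% on LD against 82.6%, 84.98% and 84.5% on CD. Both windows were thus covered less on LD in every sample, with an exact permutation p of 0.1, the smallest 3 against 3 allow (two-sided). The Apoa4 window shares 14.9 kb with that of Apoa5, so these are not independent loci. With windows of 10 kb, of 50 kb or of 20 kb around the start site the Apoa4 separation was lost and that of Apoa5 was kept, and at 50 kb Apoa1 and Apoc3 were also lower on LD. Within these windows the block between Apoa4 and Apoa5 ended at 46070800 or 46071000 on chromosome 9 in the LD samples, at 46071600 and 46072400 in CD samples 2 and 1, and ran on through Apoa5 to 46092200 in CD sample 3. The Apoa4 gene body itself was fully covered in all 6.

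These 2 of 10 windows lower on LD compare with 5.3% of 19139 gene windows with any peak that were separated in that direction and 20.9% that were higher on LD. Total coverage went the other way, with 149.8 to 160.4 Mb under peaks in LD samples and 139.7 to 145.4 Mb in CD samples. In the other 8 windows the diets overlapped, including those of Apob (40.1% ± 8.66 on LD, 43.2% ± 5.77 on CD) and Mttp (19.96% ± 5.82 and 19.7% ± 4.37, SD, n = 3 each). Peak lists hold no signal height, so a change in acetylation within covered ground cannot be seen in this measure.

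**Figure D3:**
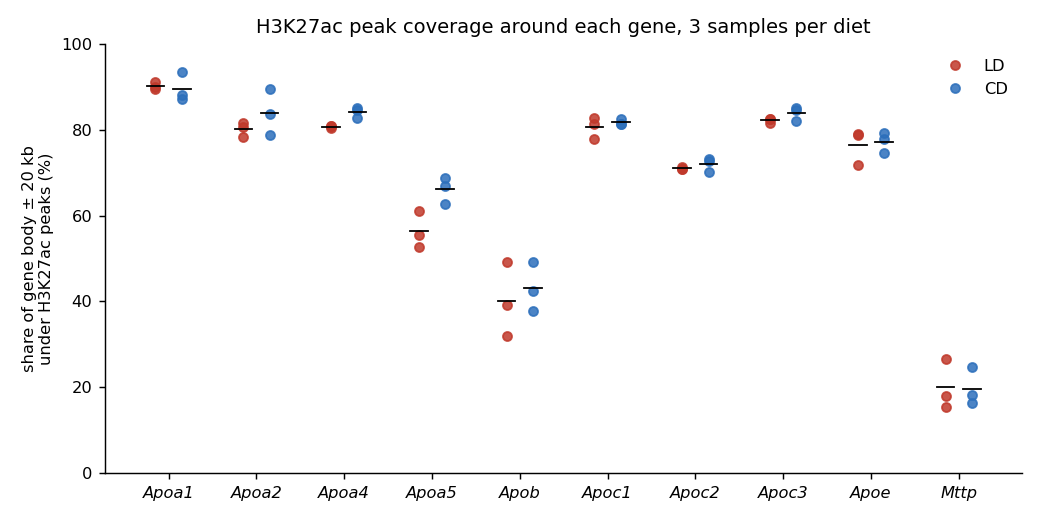
Share (%) of the gene body and 20 kb on either side that lies under H3K27ac peaks, in 3 LD (red) and 3 CD (blue) samples, with the mean as a bar. The LD samples lie below all CD samples at Apoa4 and Apoa5, and the diets overlap at the other 8 genes.

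Hnf4α, a nuclear receptor that maintains hepatocyte identity, had 52 merged loci within 20 kb of the 10 genes, 46 of them with a peak in at least 2 of 4 samples and 31 in all 4. Peak heights are tags scaled by the authors to a common library size. The highest locus lay between Apoc4-apoc2 and Apoc1 (chr7:20270773-20270994, mm9), with heights of 158.5 and 166.2 on LD and 112.5 and 230.5 on CD, and it ranked 404 of 45851 loci. It is shown because it is the strongest Hnf4α signal of the chromosome 7 cluster, 7.12 kb downstream of the Apoc1 start, as the central 200 bases (chr7:20270784-20270983, NCBIM37, plus strand).
Apoc1 downstream Hnf4α locus: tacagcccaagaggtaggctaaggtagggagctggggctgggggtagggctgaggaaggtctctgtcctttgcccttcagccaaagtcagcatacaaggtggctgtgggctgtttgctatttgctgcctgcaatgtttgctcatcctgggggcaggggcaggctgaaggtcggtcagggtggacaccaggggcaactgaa
At chromosome 9 the highest locus lay in an intron of Sik3, 12.8 kb before the Apoa1 start (157.2 and 111.2 on LD, 109.2 and 238.5 on CD). The next lay between Apoa4 and Apoa5, 11.7 kb before Apoa5 (145.2 and 119.5 on LD, 102.2 and 195.5 on CD). At the other genes the highest loci had mean heights of 122 (Apoa2, 17.1 kb upstream), 104 (an Apob intron, 0.947 kb after its start) and 58.2 (an Mttp intron). In 5 of these 6 loci the CD samples lay on either side of the LD pair, with CD sample 2 the highest. At the Apob locus (133.8 and 107.2 on LD, 47.5 and 127.2 on CD) CD sample 2 lay between the LD samples and CD sample 1 below them. The median height over all loci with 2 or more peaks was 23 and 22.8 in the LD libraries and 17.2 and 26 in the CD libraries, so the CD pair differed more than the LD pair throughout the genome.

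Of the 46 loci, 7 were separated by diet, 5 higher on LD (10.9%, beside 13.4% of all Hnf4α loci) and 2 higher on CD (4.35%, beside 4.83%). A locus was called separated when both LD samples but no CD sample had a peak there, or the reverse, or when all 4 samples had a peak, both heights of one diet exceeded both of the other and the means differed more than 1.5 times. A locus with a peak in 3 samples could therefore not be called separated. An exact permutation test of 2 against 2 samples cannot reach a small p-value, so none is given. The paper tested differential binding in these libraries with DiffBind, which was not run here. The Apob promoter was one of them, with heights of 101.5 and 92.5 on LD and 41.2 and 71.8 on CD at a locus 0.12 kb before the start. Apob RNA was not called different. A locus 7.6 kb before Apoa2 had 122.5 and 107.8 on LD against 45.2 and 89.8 on CD. The remaining 3 higher on LD had peaks in the LD samples alone: 37 and 29.8 in a Sik3 intron 11.4 kb before Apoa1, 36 and 30 downstream of Apoc2, and 5.25 and 7.25 in an Mttp intron. The 2 higher on CD were both near Apoa5, at 9.3 kb before its start (64 and 61.5 on LD, 66 and 155.5 on CD) and 14.3 kb after it (no LD peak, 10.2 and 18.8 on CD). In the first of these the margin between the diets was 2 units, and the gap rests on CD sample 2.

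The Apob promoter is given as the RefSeq sequence (GRCm38.p6, chr12:7977427-7977726, plus strand), because the separated Hnf4α peak lies at this start site. The central 200 bases of that peak in NCBIM37 are found letter for letter within this promoter. Capitals mark a match to TTGCNNAA, a core of C/EBP elements, read on either strand.
Apob promoter: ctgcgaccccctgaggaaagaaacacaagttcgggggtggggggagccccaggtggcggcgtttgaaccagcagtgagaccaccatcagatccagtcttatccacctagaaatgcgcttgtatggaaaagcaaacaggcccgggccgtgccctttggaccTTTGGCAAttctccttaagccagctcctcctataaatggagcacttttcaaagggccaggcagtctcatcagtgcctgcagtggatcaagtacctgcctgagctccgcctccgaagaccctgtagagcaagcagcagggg
It held no CAAAGTNCA. TTGCNNAA stood in the promoters of 2 of the 8 genes (Apob and the upstream start of Apoa2) and in 10.8% of all promoters. In the central 200 bases, CAAAGTNCA was found in 3 of the 46 Hnf4α loci near these genes (6.52%) and in 11.1% of all such loci. One of the 3 was the Apoa4 promoter locus, with heights of 49.2 and 62 on LD and 39.2 and 66.2 on CD. Hnf4α height there overlapped between the diets, although Apoa4 RNA was 3.25-fold higher on LD.

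C/EBPα, a leucine zipper factor of hepatocytes and adipocytes, had 53 loci within 20 kb, 40 with a peak in at least 2 samples and 18 in all 4. Of the 40, 13 were separated, 4 higher on LD (10%, beside 17.6% of all C/EBPα loci) and 9 higher on CD (22.5%, beside 19.7%). Both shares lie near the background, and the library medians were 15.5 and 17 on LD and 23 and 18 on CD. The highest separated loci near the clusters were a locus between Apoa4 and Apoa5, 7.3 kb before Apoa5 (58 and 44.5 on LD, 131 and 108 on CD), and a locus between Apoc1 and Apoe, 1.0 kb before Apoc1 (51 and 35.5 on LD, 133 and 97 on CD). They are shown, with the Hnf4α locus of the same Apoa4 to Apoa5 interval, because all 3 were separated towards CD. Other loci of the clusters ran the other way without being called, such as one 5.95 kb before Apoc2 with 55 and 62 on LD and a single CD peak of 39.5. Each sequence shown is the central 200 bases in NCBIM37 on the plus strand, at chr9:46069266-46069465, chr7:20278933-20279132 and chr9:46067311-46067510, with matches to TTGCNNAA in capitals and no match to CAAAGTNCA in any of them.
Apoa5 upstream C/EBPα locus: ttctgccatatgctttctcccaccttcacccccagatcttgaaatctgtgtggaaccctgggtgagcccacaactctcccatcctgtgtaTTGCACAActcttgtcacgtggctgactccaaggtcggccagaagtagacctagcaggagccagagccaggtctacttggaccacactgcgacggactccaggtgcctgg
Apoc1 upstream C/EBPα locus: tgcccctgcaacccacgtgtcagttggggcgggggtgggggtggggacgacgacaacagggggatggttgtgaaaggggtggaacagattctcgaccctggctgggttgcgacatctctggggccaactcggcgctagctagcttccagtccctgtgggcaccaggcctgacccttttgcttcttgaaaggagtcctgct
Apoa5 upstream Hnf4α locus: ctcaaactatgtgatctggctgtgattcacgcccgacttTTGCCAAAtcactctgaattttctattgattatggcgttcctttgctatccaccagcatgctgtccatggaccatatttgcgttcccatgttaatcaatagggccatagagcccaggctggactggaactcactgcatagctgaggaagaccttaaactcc
The C/EBPα locus before Apoc1 held no TTGCNNAA in this window. The string was found in 14 of the 40 loci near the 10 genes (35.0%) and in 40.6% of all C/EBPα loci.

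The other 7 C/EBPα loci higher on CD were 2 between Apoc4-apoc2 and Apoc1 (no LD peak against 41 and 21.5, and 33 and 34.5 against 69 and 45), 1 at 16.8 kb before Apoe (13.5 and 14 against 25 and 16.5), 1 at the start of Apoc3 (35.5 and 36 against 67.5 and 52), 1 in Apob (32 and 39 against 67.5 and 51.5) and 2 near Apoa2 (55 and 73 against 106 and 97, and 8 and 7 against 19.5 and 14.5). The 4 higher on LD had peaks in LD samples alone. Of these, 3 lay in or before Mttp (6.5 and 8, 13 and 21, 14.5 and 19) and 1 before Apoa2 (23.5 and 16.5). At the upstream Mttp start a neighbouring locus carried 40 and 23.5 on CD and 13.5 in LD sample 1. Of the loci that were not separated, the highest near Apoa1 and Apoc3 was at 12.8 kb before Apoa1 (49 and 66.5 on LD, 114.5 and 58 on CD) and the highest near Mttp was over one of its exons (56 and 50.5 on LD, 45 and 33.5 on CD).

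**Figure D4:**
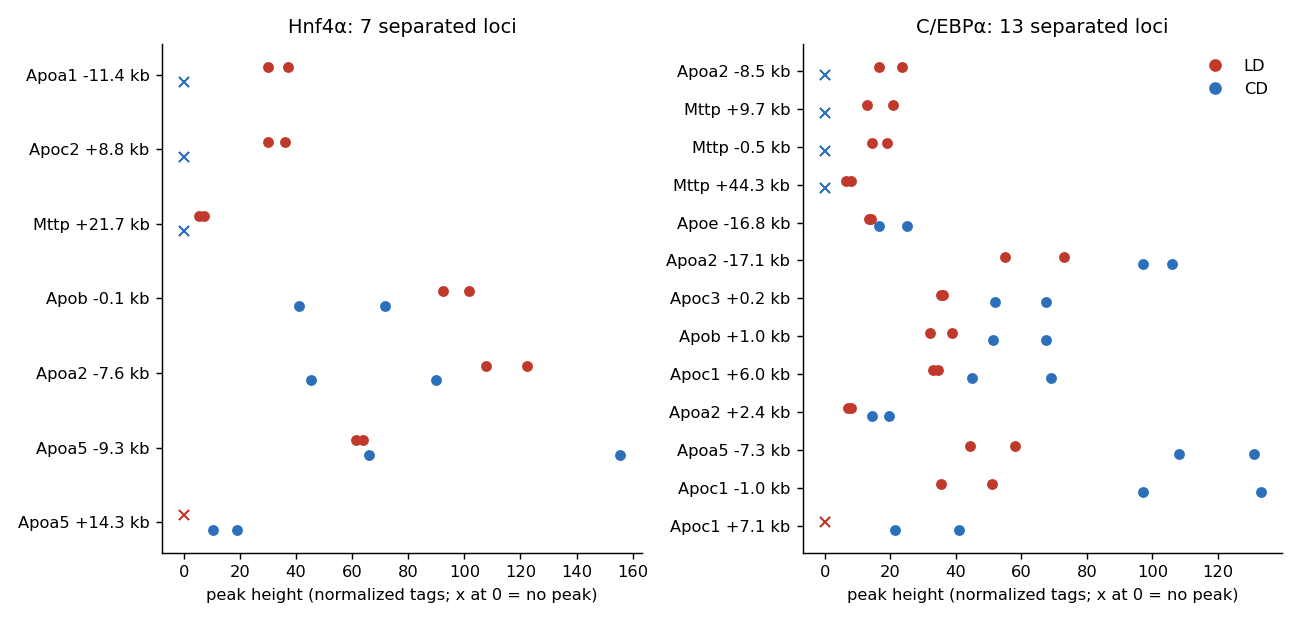
Heights (normalized tags) of the 7 Hnf4α and 13 C/EBPα loci near the 10 genes that were separated by diet, in 2 LD (red) and 2 CD (blue) samples; each row names the nearest gene and the distance from its start site in kb, and a cross at 0 means no peak. Only separated loci are drawn, 5 Hnf4α and 4 C/EBPα rows with the LD points to the right and 2 and 9 with the CD points to the right.

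PCHi-C joins HindIII fragments that hold promoters (baits) to the fragments they contact, and each interaction carries a CHiCAGO score, with 5 as the minimum. The start sites of the 10 genes fell on 11 fragments, 9 of them baits. Apoa1 and Apoc3 share 1 fragment and cannot be told apart, Apoa5 shares its bait with Zpr1 and Mttp with Trmt10a, and the Apoc2 fragment and that of a second Mttp start were no baits. Apoa2 has 2 baits, and the upstream one is named for Nr1i3 and also holds the starts of Nr1i3 and Tomm40l, so its 20 interactions on LD and 22 on CD cannot be assigned to Apoa2. Without this bait, 168 interactions on LD and 196 on CD belong to baits named for one of the 10 genes. All 9 baits, the shared upstream one included, had 188 interactions on LD and 218 on CD within 1 Mb, 158 of them in both lists. Of the 188 on LD, 30 (16%) were missing from the CD list, beside 30.4% of the whole LD list. Of the 218 on CD, 60 (27.5%) were missing from the LD list, beside 29.7% of the whole CD list. Each list pools 2 replicates, so these counts carry no error and no test was made.

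**Figure D5:**
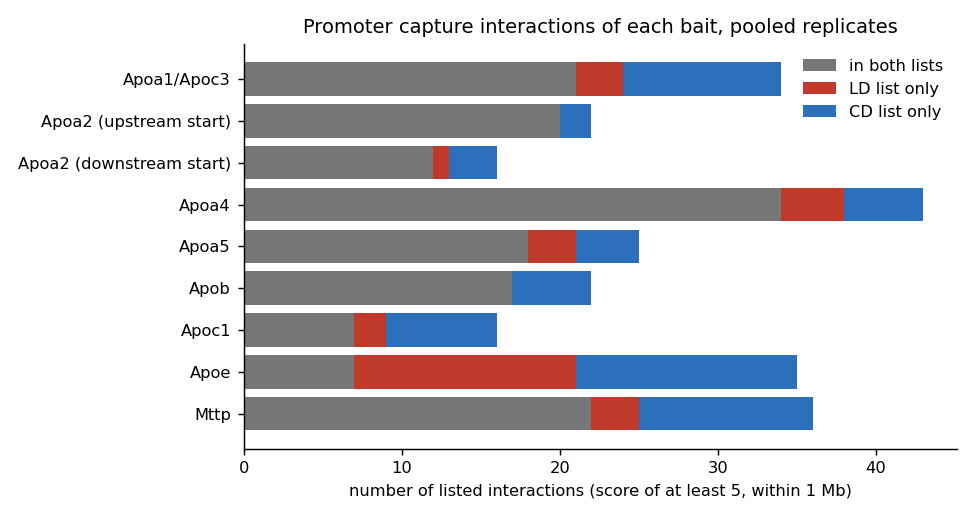
Number of listed interactions (CHiCAGO score of at least 5, within 1 Mb) of each bait that holds a start site of the 10 genes, split into those in both lists (grey), in the LD list alone (red) and in the CD list alone (blue). Apoa4 has the longest bar, with 34 of 43 in both lists, and Apoe the smallest grey share, with 7 of 35.

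Apoa4 had the most interactions of these baits, 38 on LD and 39 on CD, 34 of them shared. Over all baits with an interaction the median was 5 on each diet, and 94.4% of baits had fewer than the 43 of Apoa4 over both lists. Its 2 strongest contacts on LD were with fragments 231 and 239 kb away, scoring 31.6 and 28.2 on LD and 34.1 and 21.2 on CD. The first of these fragments (chr9:45819230-45820623, mm9), which holds no annotated start site and carried H3K27ac in every sample, was also the top contact of the Apoa1 and Apoc3 bait (20.4 on LD, 23.9 on CD) and, on CD, of the Apoa5 bait (11.0 on LD, 14.6 on CD). In all, 19 of 49 fragments contacted from the chromosome 9 cluster were reached by all 3 of its baits, all 19 between 45715877 and 45824621, and 16 of them by all 3 on LD and 16 on CD. Among these were the start fragments of Sik3 and Pafah1b2. The Apoa4 fold change on LD thus came with a set of listed contacts that was largely the same on both diets, and 25 of its 34 shared contacts scored higher on CD and 9 on LD. Over all shared interactions 47.4% scored higher on LD.

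Contacts between members of a cluster were few. On chromosome 9, the Apoa1 and Apoc3 bait met the Apoa4 bait with a score of 5.02 on CD, at the threshold, and in the LD list not at all. No interaction joined either to the Apoa5 bait, although the Apoa4 and Apoa5 fragments are 28.2 kb apart. On chromosome 7, Apoe contacted the Apoc2 fragment 27.4 kb away on both diets (15.9 on LD, 20.3 on CD), and Apoc1 contacted it on CD alone (8.26). Apoc1 and Apoe lie on adjoining fragments, and the lists held 0 pairs of adjoining fragments, so a contact between them could not appear. With these 3, a further 57 interactions joined 1 of the 10 genes to the start fragment of another gene, 40 on LD and 49 on CD, 32 of them in both. Tomm40, Clptm1 and Apoc4 were such partners on chromosome 7, Pafah1b2 and Sik3 on chromosome 9, and Dapp1 and Lamtor3 at Mttp.

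Apoe had the smallest share of interactions in both lists. It had 21 interactions on each diet, and 7 of its 35 in all were in both (20%). Over 3382 baits with at least 20 interactions the median share was 59.1%, and 1.39% of them had a lower share than Apoe. The highest of its interactions in 1 list alone scored 8.43 on LD (Qpctl) and 9.98 on CD (Foxa3), and its 2 strongest were with Apoc2 and with Irf2bp1 691 kb away (6.54 on LD, 14.3 on CD). Apoc1 had 7 of 16 in both, with Dmpk 612 kb away (7.57 on LD, 9.95 on CD) and Clptm1 (7.56 and 9.40) as its strongest on CD among these. Apob had all of its 17 LD interactions in the CD list, which held 22. Of these 17, 16 scored higher on CD, led by 3 adjoining fragments 67.2 to 69.3 kb upstream (13.01 to 15.5 on LD, 18.7 to 21.8 on CD). The 2 Apoa2 baits had 20 and 13 interactions on LD and 22 and 15 on CD, of which 20 and 12 were in both lists. Mttp had 25 interactions on LD and 33 on CD, 22 shared, with Dapp1 (13.9 and 16.4) and a fragment 153 kb away (8.72 and 15.8) on top. The second contact of the Apoa5 bait on CD was a fragment 287 kb away (8.65 and 13.8), and that of the Apoa1 and Apoc3 bait on LD was Pafah1b2 (18.5 and 13.3).

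The contacted fragments that were no baits carried H3K27ac, in all 3 samples of the diet, in 70 of 148 cases on LD (47.3%) and 76 of 166 on CD (45.8%), beside 22.5% and 22.4% over all interactions. Hnf4α peaks in both samples stood on 14.2% and 12.05% of them (9.27% and 8.83% over all), and C/EBPα peaks on 10.1% and 12.7% (7.28% and 6.95% over all). Fragments reached by more than 1 bait count more than once here. Topologically associating domains around the 10 genes had the same borders on both diets at Apoa1 to Apoa5 (chr9:45585000-46140000), Apoa2 and Apob. At Apoe, Apoc1 and Apoc2 the domain began at 19960000 on LD and 19970000 on CD, and at Mttp at 137420000 and 137430000. Of the interactions, 173 of 188 on LD and 190 of 218 on CD stayed within 1 domain.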

How the data were processed

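The members and gene lists were chosen with earlier results of these data known. Reads were mapped to mm9 (NCBIM37) by the authors. According to the submitters' processing notes the tools were STAR 2.5, Bowtie 0.12.8, Picard 1.110, SICER, HOMER, bedtools and featureCounts 1.5.0-p1 of Subread. The authors deposited strand-specific read pair counts per gene, in which reads on 2 genes were dropped, and TPM values per gene. H3K27ac peaks (SICER) were deposited per sample as intervals with no height. Hnf4α and C/EBPα peak heights are a deposited tag signal, which HOMER scaled to a common library size for each sample. PCHi-C interactions carry the CHiCAGO score given by the authors on pooled replicates, and domains were called on pooled Hi-C.

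Counts were tested with edgeR 4.0.16 (two-sided quasi-likelihood test with robust dispersion, after TMM normalization and the filterByExpr filter) in R 4.3.3, with Benjamini-Hochberg adjustment over all 13494 tested genes, and the procedure was tested on simulated data. DESeq2 1.42.0 and limma 3.58.1 (log2 of TPM plus 1 or 0.1) served as alternatives. CPM values were computed from the counts with TMM library sizes. The labels do not say that replicates came from separate cages or days, so p-values measure the spread between these samples.

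Peaks within 20 kb of a gene body were merged by overlap of at least 1 base. Domain and interaction coordinates were used as deposited. All 10 genes are named. Of each pathway list at most the 3 called genes with the largest change in each direction are named, of each gene the highest locus and every separated locus, and of each bait the 2 interactions with the highest score on either list. Input libraries were not analysed here. Promoters came from RefSeq (GRCm38.p6), and peak sequences from NCBIM37. Some named items are not reported here.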

Additional observations from a re-analysis of the deposited data

Results flagged for a closer look

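One value stood apart from its group by Dixon's test at the 95% level, which was run on the 5 LD and the 5 CD mice for each of the 10 genes, 20 groups in all. Apoc3 in LD mouse 5 was the lowest of its group at 1160.5 CPM, while the other 4 LD mice lay between 1317 and 1361 CPM. Chance flags about 1 in 20 such groups.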

How the results depend on the processing

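Against 1 gene called higher in the report, 2 were called (Apoa4 and Apoe) with DESeq2, with at least 10 counts in every library, and with limma on log2(TPM + 1) or log2(TPM + 0.1), and 0 with the replicate number as a block. In that replicate block fit Apoa4 had a log2 fold change of 1.53 and an adjusted p of 0.0615 by edgeR. Same-numbered LD and CD mice did not deviate together (correlations -0.08 to 0.19, and 1 of 5 mice matched best with its own number), so the numbers were not taken to pair the samples. Leaving out single libraries gave 1 to 2 genes called higher (2 without LD mouse 5, which added Apoe) and 0 to 1 called lower (Apoa5 without LD mouse 1, 2 or 4, at -0.29, -0.28 and -0.28). Apoa4 stayed between 1.5 and 1.91 over 17 alternatives. Genes with separated H3K27ac coverage (2) became 1 with a 10 kb window, 1 with 20 kb around the start site (Apoa5 in both, Apoa4 lost), 3 with 50 kb (Apoa1, Apoa5 and Apoc3), and 2 to 4 without single samples (4 without CD sample 1). Without CD sample 3, Apoa1 was separated as higher on LD, while at 50 kb it was lower on LD. With means required to be 2 times apart, 4 Hnf4α loci (of 7) and 8 C/EBPα loci (of 13) stayed separated, and 8 C/EBPα loci with heights of at least 20. At a score of at least 7 there were 103 interactions on LD, 129 on CD and 39 contacts between gene starts, and at a score of at least 10 there were 45, 60 and 18. The cause of these changes was not tested, other than that higher limits keep fewer items. Groups of 2 or 3 ChIP samples and pooled interaction lists limit what these data can show.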
